A study of Homo sapiens with 15 samples.

Results

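The CCN genes encode secreted matricellular proteins, which sit in the matrix around cells and act on cells through integrins and co-receptors rather than as structural fibres. The family genes described here are CCN1 (also called CYR61), CCN2 (CTGF), CCN3 (NOV), CCN4 (WISP1) and CCN5 (WISP2). CCN1 and CCN2 are textbook targets of the transcriptional co-activators YAP and TAZ, which act with TEAD factors and are held back by the kinases of the Hippo pathway. CCN2 is also induced by TGF-β in fibroblasts and is a common marker of fibrosis, and CCN4 was first described as a Wnt-induced gene.

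The genes were found by symbol in the tables of 2 cell lines, so the 5 genes stand among 17138 genes listed in either table. They were chosen by their levels across the 5 groups of the study, which had been seen in earlier results of these data. Their values are therefore a description: fold changes, SEs and calls of the fit across all genes are given for them, with no p, and none of these is a test of the members. All 5 were listed and passed the filter on low counts in the MRC5 table. For H196, 4 were listed and 2, CCN1 and CCN2, passed the filter. CCN4 in H196 cells was not analysed here.

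MRC5 is a human lung fibroblast line, and H196 and H69 are lines of small cell lung cancer (SCLC), of the non-neuroendocrine and the neuroendocrine kind. The fibroblasts were cultured by themselves (MRC5_Mo), beside H69 (MRC5_CoH69) or beside H196 (MRC5_CoH196). The H196 tumor cells were cultured by themselves (H196_Mo) or beside the fibroblasts (H196_Co). Culture lasted a week, the partners shared medium across a porous insert, and only the named side was sequenced. Each group had 3 libraries, made from poly(A) RNA, 15 in all. No group carried a drug or a genetic change, and each side of a co-culture is a single cell line, so the values describe these lines. The labels do not say that the libraries of a group came from separate cultures, so p-values measure only the spread between these libraries.

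Libraries held 18476890 to 19170560 counts in MRC5 and 16073597 to 17358349 in H196. Fibroblast markers matched the MRC5 label. In each MRC5 group 10 of 10 had a mean of at least 1 FPKM (fragments scaled for gene length and library size). Of 5 epithelial markers, CDH1 was below 0.1 FPKM or not listed in all 15 libraries. However, 3 of the 5 reached a mean of 1 FPKM in each MRC5 group, and 2 of the 5 in each H196 group. The 5 summed to 106 to 112 FPKM in MRC5_Mo and 179 to 189 FPKM in H196_Mo. In the H196 libraries COL1A2, COL3A1, PDGFRA, PDGFRB, LUM, THY1 and FAP were below 0.1 FPKM or not listed, in H196_Co as in H196_Mo. The summed fibroblast markers stood at 2993 to 3272 FPKM in H196_Mo and 3251 to 3477 FPKM in H196_Co, nearly all of it VIM. The 6 neuroendocrine markers summed to at most 0.19 FPKM in any MRC5 library and to 8.31 to 9.29 FPKM in H196 libraries. Nearly all of the H196 sum was SYP, at 8.71 FPKM in H196_Mo and 8.22 FPKM in H196_Co. It was the only 1 of the 6 to reach a mean of 1 FPKM there.

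CCN1 and CCN2 stood among the most abundant transcripts of the fibroblasts and were higher again in fibroblasts grown with H196 cells. CCN1 encodes an integrin ligand that guides adhesion, migration and angiogenesis. In MRC5_Mo it was at 399.98, 408.51 and 419.56 FPKM, and in MRC5_CoH69 at 461.67, 448.2 and 445.88 FPKM. In MRC5_CoH196 the libraries stood at 882.62, 811.71 and 902.66 FPKM. All MRC5_CoH196 libraries lay above every library of the other groups, and the MRC5_CoH69 libraries lay just above MRC5_Mo without overlap. The log2 fold change on counts was 1.25 (SE 0.046) for MRC5_CoH196 against MRC5_Mo, which is 2.38-fold, and 0.15 (SE 0.046) for MRC5_CoH69 against MRC5_Mo, which is 1.11-fold. In a bulk library, more RNA per cell and a larger share of cells that express a gene cannot be told apart.

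CCN2, the connective tissue growth factor, was nearly level with CCN1 in the fibroblasts. It stood at 449.07, 456.92 and 465.01 FPKM in MRC5_Mo and at 492.03, 466.7 and 463.36 FPKM in MRC5_CoH69, and these 2 groups overlapped. In MRC5_CoH196 it stood at 930.65, 933.77 and 924.72 FPKM, with an SD of 4.60 FPKM (n = 3), smaller than in the other MRC5 groups. This order of the SDs did not hold for counts scaled to library size (CPM). There CCN2 stood at 2064 ± 24.3 in MRC5_CoH196, 900 ± 15.3 in MRC5_Mo and 940 ± 33.9 in MRC5_CoH69. The log2 fold change was 1.20 (SE 0.040) in MRC5_CoH196 and 0.06 (SE 0.040) in MRC5_CoH69, both against MRC5_Mo. By mean FPKM, CCN2 ranked 191 among the 16382 listed genes in MRC5_Mo and 97 in MRC5_CoH196, and CCN1 ranked 208 and 106. Together the pair took 0.173% to 0.180% of all counts of an MRC5_Mo library and 0.353% to 0.369% of an MRC5_CoH196 library. The entry for CCN2 in the table spans 140733 bases on chromosome 6 with 13 transcripts, far longer than the 3197 bases of the gene in RefSeq. Reads of an antisense transcript in that span could not be told apart from CCN2 reads.

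The sequence just before the start of CCN2 is shown because TEAD factors, the DNA-binding partners of YAP and TAZ, are known to bind the motif GGAATG. RefSeq (GRCh38.p14) places these 250 bases at chr6:131951373-131951622 on the minus strand, upstream of the transcript start, and capitals mark each GGAATG.
CCN2 upstream: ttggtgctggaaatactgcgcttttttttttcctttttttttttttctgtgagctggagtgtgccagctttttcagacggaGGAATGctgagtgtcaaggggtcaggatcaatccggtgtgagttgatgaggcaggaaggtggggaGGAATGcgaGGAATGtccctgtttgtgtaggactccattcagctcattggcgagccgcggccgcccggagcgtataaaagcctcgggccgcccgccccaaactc
The motif, searched on both strands, was present 3 times on the strand of the gene, from 169 to 164, from 104 to 99 and from 95 to 90 bases before the start, with no overlap between the matches. Of 35116 such windows in the reference, 11.9% held at least 1 copy and 29 windows (0.0826%) held 3 or more. A match describes letters in a window, not a bound site. The gene and the motif were chosen with their link known, so these shares are a description and no test. CCN2 was the only one of the 5 genes with a window in that reference.

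**Figure D1:**
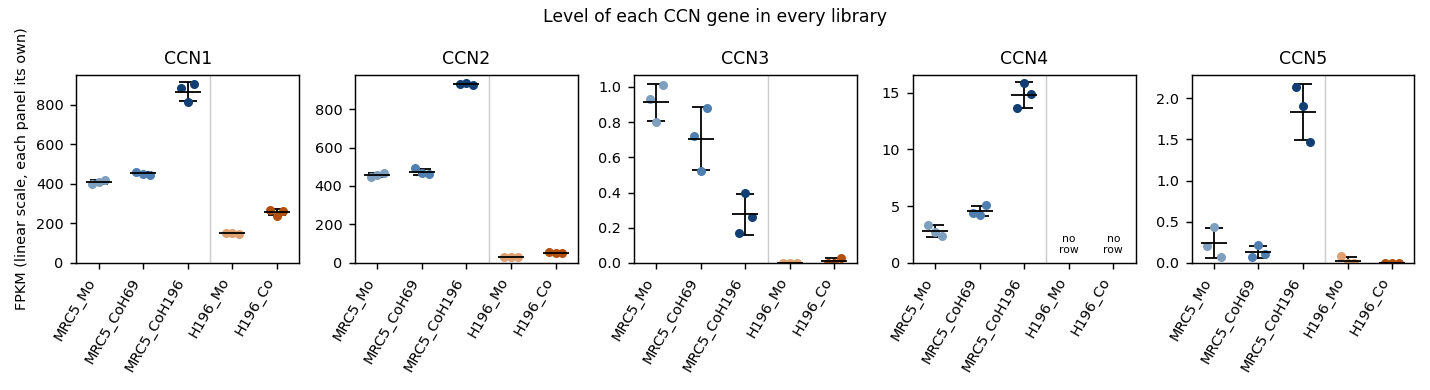
Level of CCN1 to CCN5 in FPKM (vertical axis, linear, starting at 0 and scaled for each panel) in the 5 groups. Points are single libraries, the long bar is the mean and the error bar the SD of 3 libraries. In every panel the MRC5_CoH196 libraries stand apart from the other MRC5 libraries, upwards for CCN1, CCN2, CCN4 and CCN5 and downwards for CCN3, and CCN4 has no row for H196.

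CCN4, whose product is secreted by fibroblasts and linked to lung fibrosis and Wnt signalling, was the member with the largest difference among those with ample counts. In MRC5_Mo it stood at 3.36, 2.70 and 2.39 FPKM (300, 243 and 215 counts). In MRC5_CoH69 it stood at 4.40, 4.23 and 5.11 FPKM and in MRC5_CoH196 at 13.65, 15.88 and 14.85 FPKM. The 3 groups did not overlap, and CCN4 was the single member past the threshold with both partners. Its log2 fold change against MRC5_Mo was 2.56 (SE 0.081, 5.90-fold) with H196 and 0.71 (SE 0.094, 1.64-fold) with H69, the latter 0.55 and short of the limit on log2(FPKM + 1). Between the partners, MRC5_CoH196 against MRC5_CoH69, the log2 fold change was 1.85 (SE 0.075).

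CCN5 differs from the other members in its protein: it lacks the cystine-knot domain that the annotation gives for CCN1 to CCN4, and the other annotated domains (IGFBP, VWC and TSP1) are shared by all 5. It was close to silent in MRC5_Mo with 2, 5 and 1 counts and in MRC5_CoH69 with 1, 1 and 2 counts. In MRC5_CoH196 it had 41, 35 and 28 counts, or 2.14, 1.90 and 1.47 FPKM. Thus 104 counts in MRC5_CoH196 stood against 8 in MRC5_Mo, a ratio of 14.5 with an exact 95% interval of 7.10 to 34.5, and against 4 in MRC5_CoH69. The interval covers counting error only. The fitted log2 fold change was 3.80 (SE 0.386), and 4.57 without MRC5_Mo replicate 2. CCN5 passed the filter only through MRC5_CoH196, so it had to differ there. Its FPKM values at 1 count ran from 0.07 to 0.22 in MRC5_CoH69, so low FPKM of this gene are coarse.

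CCN3, which encodes a family member known to counter the fibrotic action of CCN2, was the member that went the other way, at a low level. Its counts were 38, 33 and 41 in MRC5_Mo, 30, 21 and 36 in MRC5_CoH69 and 7, 16 and 11 in MRC5_CoH196. The MRC5_CoH196 libraries lay below all the others, and MRC5_CoH69 overlapped MRC5_Mo. The log2 fold change was -1.55 (SE 0.285) with H196 and -0.35 (SE 0.233) with H69. On log2(FPKM + 1) it was -0.59 with H196, and -0.42 between the partners, where CCN3 was then not called. The entry for CCN3 spans 112717 bases with 7 transcripts, beside 7989 bases for the gene in RefSeq, so reads of other transcripts in that span could not be told apart from CCN3 reads.

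The order of the members by FPKM was CCN2, CCN1, CCN4, CCN3 and CCN5 in MRC5_Mo. In MRC5_CoH196 it was CCN2, CCN1, CCN4, CCN5 and CCN3, so the last places were exchanged. No neighbours in these orders overlapped in their library values. CCN1 and CCN2 dominated the summed FPKM of the family, with a lowest share of 99.0% among the MRC5 libraries, and CCN4 made up 0.269% to 0.394% in MRC5_Mo and 0.746% to 0.900% in MRC5_CoH196. The summed level of the family was 854 to 888 FPKM in MRC5_Mo, 915 to 959 FPKM in MRC5_CoH69 and 1764 to 1844 FPKM in MRC5_CoH196.

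A gene was called when its adjusted p was under 0.05 and its absolute log2 fold change above 0.58. For MRC5_CoH196 against MRC5_Mo 5 of 5 members were called, CCN3 as lower and the others as higher, beside 31.9% of the 12819 genes tested. The libraries of these groups did not overlap for 5 of 5 members, beside 75.5% of all tested genes. For MRC5_CoH69 against MRC5_Mo 1 of 5, CCN4, was called, beside 0.554% of all genes, and 2 of 5 did not overlap, beside 25.7%. For MRC5_CoH196 against MRC5_CoH69 5 of 5 were called, beside 28.2%, and 5 of 5 did not overlap, beside 73.1%. In that comparison CCN1 had a log2 fold change of 1.10, CCN2 of 1.13, CCN3 of -1.20 and CCN5 of 4.72. Since the members were selected on these contrasts, nothing is read from the counts. The 3 MRC5 comparisons share libraries.

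**Figure D2:**
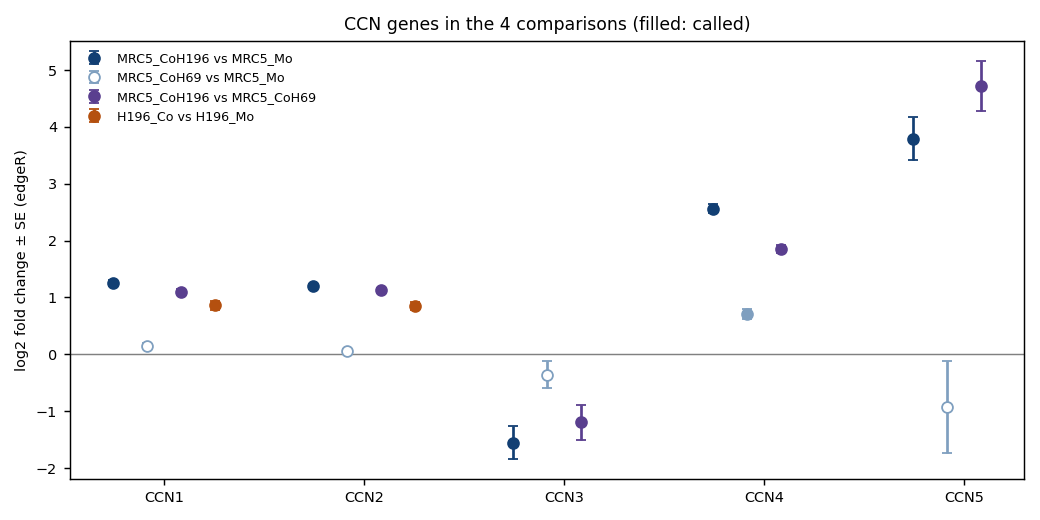
Log2 fold change with its SE (vertical axis) of CCN1 to CCN5 (horizontal axis) in the 4 comparisons, marked by colour; filled points were called. MRC5_CoH196 against MRC5_Mo runs from -1.55 for CCN3 to 3.80 for CCN5, while MRC5_CoH69 against MRC5_Mo is called for CCN4 only, at 0.71.

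Co-culture also went with higher CCN1 and CCN2 on the tumor cell side. In H196_Mo CCN1 stood at 151.46, 150.98 and 146.59 FPKM, and in H196_Co at 269.58, 238.53 and 263.54 FPKM. CCN2 stood at 33.15, 30.31 and 30.56 FPKM in H196_Mo and at 54.89, 51.18 and 54.14 FPKM in H196_Co. The groups did not overlap for either gene. The log2 fold change was 0.86 (SE 0.072) for CCN1 and 0.85 (SE 0.072) for CCN2, which is 1.81-fold and 1.80-fold. Both tested members were called, beside 3.86% of the 12806 genes tested, and neither overlapped between the groups, beside 37.2% of all genes.

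CCN3 had 1 count in all 6 H196 libraries together, in H196_Co replicate 3, and CCN5 had 1 count, in H196_Mo replicate 1. A count of 0 in an H196 library allows up to 0.173 to 0.187 CPM (counts scaled to library size), a limit that covers counting error only. CCN6, the remaining gene of the family, had 1 count in the H196 libraries together, in H196_Mo replicate 3, and was not analysed here in MRC5. Over the 4 members listed for H196, the lowest share of CCN1 and CCN2 in the summed FPKM was 99.96%.

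The balance of the pair differed between the lines and hardly between the groups of a line. The log2 ratio of CCN2 to CCN1 FPKM within a library was 0.16 ± 0.01 (SD, n = 3) in MRC5_Mo, 0.07 ± 0.02 in MRC5_CoH69 and 0.10 ± 0.09 in MRC5_CoH196. In H196 it was -2.26 ± 0.06 alone and -2.27 ± 0.04 in co-culture, so CCN1 exceeded CCN2 in every H196 library. Mean CCN1 was 2.73-fold higher in MRC5_Mo than in H196_Mo on the FPKM scale, and mean CCN2 14.6-fold higher. In co-culture the same ratios, MRC5_CoH196 to H196_Co, were 3.37 and 17.4. These ratios cross tables that were normalized separately and carry no test. Per the methods, MRC5 cells were grown in MEM and the SCLC lines in RPMI medium. Differences between MRC5_Mo and H196_Mo by line and by medium thus cannot be told apart.

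**Figure D3:**
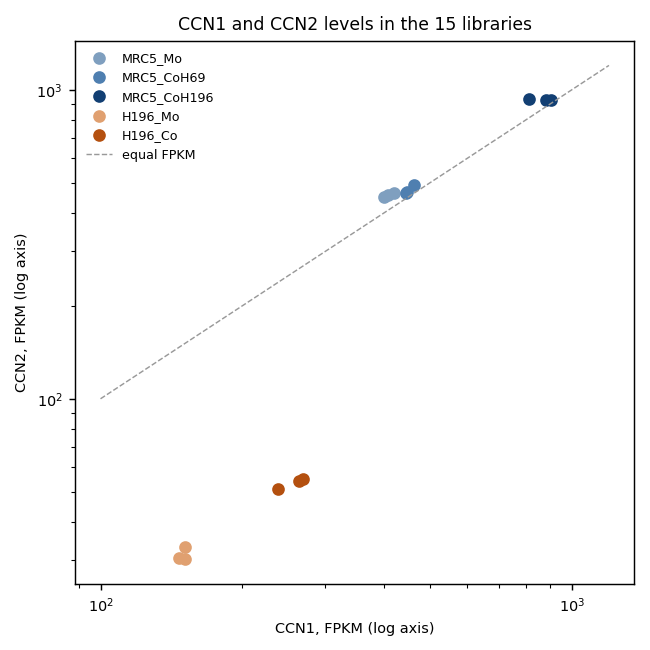
CCN2 against CCN1 in FPKM (both axes logarithmic) in the 15 libraries, coloured by group; the dashed line marks equal FPKM. MRC5 libraries lie just above the line at 400 to 934 FPKM, and H196 libraries lie well below it, with H196_Co to the upper right of H196_Mo.

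Other target genes of YAP and TAZ with TEAD were followed in a list of 20 genes that leaves out CCN1 and CCN2, with tests across all genes (edgeR quasi-likelihood, Benjamini-Hochberg adjusted p). In MRC5_CoH196 against MRC5_Mo 8 of 20 rose and the other 12 did not pass. The list median was 0.44 on the log2 scale, beside -0.00 over all tested genes, of which 17.2% rose and 14.7% fell. The rise depended on the list. The YAP conserved signature of the annotation, added after seeing the data, had a median of 0.09, with 14 of 52 tested genes higher and 6 lower. IGFBP3, an insulin-like growth factor carrier, rose from 146 ± 12.8 to 2712 ± 124 FPKM (SD, n = 3), a log2 fold change of 4.39 (edgeR adjusted p = 1.42e-26). LATS2, a Hippo kinase that restrains YAP and is itself a YAP target, rose from 16.2 ± 0.37 to 38.8 ± 1.1 FPKM, a log2 fold change of 1.45 (edgeR adjusted p = 9.96e-20). ANKRD1, often read together with CCN1 and CCN2 as a YAP target, rose by 0.84 on the log2 scale (edgeR adjusted p = 4.92e-06). In MRC5_CoH69 against MRC5_Mo 2 of 20 rose, IGFBP3 (log2 fold change 0.68) and TGFB2 (0.80), and the list median was 0.05. The direct comparison of MRC5_CoH196 with MRC5_CoH69 called 6 of 20, with a list median of 0.39. In H196_Co against H196_Mo 2 of 19 tested genes rose, ANKRD1 (log2 fold change 1.68) and IGFBP3 (1.34), both at or below 1.04 FPKM, and the list median was 0.12. In H196_Mo ANKRD1 stood at 0.34 FPKM and IGFBP3 at 0.26 FPKM. With 10 counts or more asked for in each library, 0 of the targets were called in H196. Without H196_Co replicate 1 the call of IGFBP3 in H196 was lost, at 1.05. ANKRD1, TGFB2 and IGFBP3 in H196 were named after their values were seen, to spell out small counts. LATS2 was at -0.03 in H196 (edgeR adjusted p = 0.857). Whether the responses of the lines differ was not tested. The annotation also places CCN1, CCN2 and CCN5 in a hypoxia gene set. The paper reports hypoxia pathway genes as enriched in MRC5_CoH196 and H196_Co. It also reports that the level of HIF-1α protein did not change in H196 cells after co-culture. The hypoxia gene set was not followed as a list here, and its part in the CCN values was not tested.

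**Figure D4:**
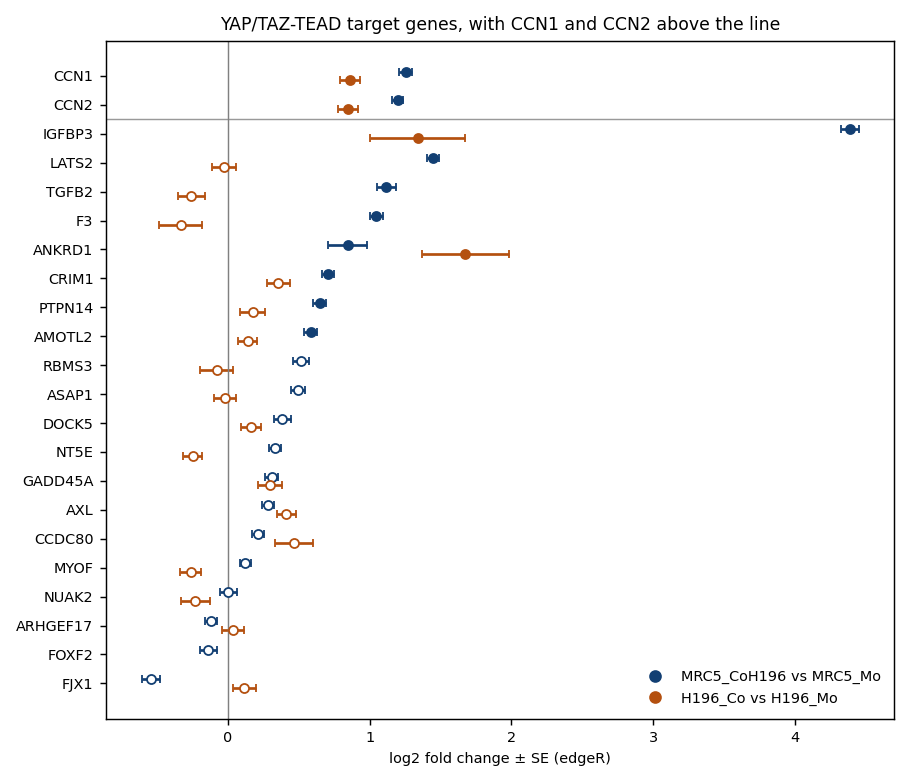
Log2 fold change with its SE (horizontal axis) of the 20 YAP/TAZ-TEAD target genes (vertical axis), with CCN1 and CCN2 above the line, in MRC5_CoH196 against MRC5_Mo (blue) and H196_Co against H196_Mo (orange); filled points were called. IGFBP3 lies farthest to the right in MRC5 at 4.39, and among the target genes ANKRD1 and IGFBP3 are the filled orange points.

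The Hippo pathway components and the YAP, TAZ and TEAD genes themselves were listed apart. In MRC5_CoH196 against MRC5_Mo 6 of 19 rose and 2 fell, with a median of 0.44, and LATS2 and AMOTL2 are shared with the target list. SAV1, the scaffold of the Hippo kinases, rose by 0.70 on the log2 scale (edgeR adjusted p = 3.09e-11). The factor TEAD2 fell by 0.90 on the log2 scale, from 27.6 ± 1.2 to 13.2 ± 0.35 FPKM, and TEAD4 fell by 0.66 (edgeR adjusted p = 2.56e-13 and 6.11e-07). YAP1 was at 0.33 and WWTR1, which encodes TAZ, at 0.40, both short of the fold limit. In H196_Co against H196_Mo edgeR called 0 of 19, with 9 at an unadjusted p under 0.05 and 0 called by DESeq2, and the median was -0.07.

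Genes of the SRF and MRTF pathway, which also drives CCN1 and CCN2 in response to actin, mostly had lower values in MRC5_CoH196 than in MRC5_Mo. In that comparison 1 of 12 rose and 2 fell, with a median of -0.20, and 3 of 12 had a log2 fold change above 0. FHL2, a LIM-domain co-factor, rose by 0.97 on the log2 scale (edgeR adjusted p = 4.62e-15). ACTG2, a smooth muscle actin, fell from 342 ± 1.9 to 130 ± 4.4 FPKM, a log2 fold change of -1.22, and SRF itself fell by 0.76 on the log2 scale. In H196_Co 1 of 10 tested genes rose, TAGLN, at 0.62 (edgeR adjusted p = 0.00431), and the median was 0.19. TAGLN stood at 0.54 without H196_Mo replicate 3 and was then not called.

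In the TGF-β list, of ligands, receptors and SMAD targets, 7 of 13 rose and 1 fell in MRC5_CoH196 against MRC5_Mo, with a median of 0.84. TGFBI, a matrix protein, rose by 1.48 on the log2 scale (edgeR adjusted p = 3.40e-20). The collagen chain COL1A1 fell from 2628 ± 106 to 785 ± 39.6 FPKM, a log2 fold change of -1.57. In MRC5_CoH69 1 of 13 rose, TGFB2, and the median was 0.18. In H196_Co the median of this list was 0.05.

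Of the immediate early genes, the class in which CCN1 was found as a serum-induced gene, 5 of 16 rose and 3 fell in MRC5_CoH196 against MRC5_Mo, with a median of 0.27. DUSP1, a MAP kinase phosphatase, rose by 1.97 and IER3 by 1.55 on the log2 scale (edgeR adjusted p = 9.31e-18 and 5.49e-18). EGR1, a zinc finger factor, fell from 40.4 ± 1.0 to 22.1 ± 1.6 FPKM, a log2 fold change of -0.69. In H196_Co 6 of 14 tested genes rose, with a median of 0.33 beside -0.00 over all genes, of which 3.26% rose and 0.601% fell. KLF2 rose there by 1.03 and JUN by 1.0 on the log2 scale (edgeR adjusted p = 3.35e-07 and 5.66e-09). Of the Wnt targets 5 of 11 were tested in MRC5, and 1, the factor TCF7, fell in MRC5_CoH196 by 0.82 on the log2 scale (median -0.49). In H196_Co 4 of 9 tested Wnt targets rose, with a median of 0.25, among them NKD2, a Wnt inhibitor, at 0.78 (edgeR adjusted p = 9.18e-04). The 4 were low there, with means of 0.09 (NKD1), 1.88 (NOTUM), 2.24 (SP5) and 4.07 FPKM (NKD2). DKK1 and TCF7 lay lower in H196_Co without overlap, at -0.51 and -0.38, both short of the fold limit (edgeR adjusted p = 0.00265 and 0.00599). Of the 9 genes, 5 had a log2 fold change above 0. These levels and falls were added after the values were seen.

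Receptors and co-receptors to which CCN proteins bind were listed too. In MRC5_CoH196 against MRC5_Mo 4 of 10 tested receptors rose, with a median of 0.35. The integrin chain ITGB3 rose from 7.81 ± 0.11 to 15.3 ± 0.62 FPKM (log2 fold change 1.15, edgeR adjusted p = 4.31e-15). The chain ITGB5 rose from 70.5 ± 0.69 to 134 ± 3.4 FPKM (1.11, edgeR adjusted p = 3.32e-17). In MRC5_CoH69 1 of 10 rose, ITGB3, at 0.62 (median 0.07), a call lost at 0.56 without MRC5_CoH69 replicate 1. In H196_Co the median of the 13 tested receptors was 0.24.

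Of the growth factors that CCN proteins bind, 4 of 5 tested rose and 1 fell in MRC5_CoH196 against MRC5_Mo, with a median of 1.0. VEGFA, the angiogenic factor that CCN2 can sequester, rose from 21.8 ± 1.3 to 270 ± 17 FPKM, a log2 fold change of 3.84 (edgeR adjusted p = 2.68e-25). IGF2 rose by 1.59 and BMP4 fell by 1.06 on the log2 scale. In MRC5_CoH69 1 of 5 rose, IGF2, at 0.59, with a median of 0.34; this call was lost, at 0.55 to 0.57, without MRC5_CoH69 replicate 1 or 2 or MRC5_Mo replicate 2 or 3. In H196_Co 2 of 5 rose, VEGFA at 1.12 and IGF2 at 0.71 (edgeR adjusted p = 6.17e-10 and 1.79e-06), with a median of 0.43.

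Other matricellular proteins were mixed. In MRC5_CoH196 against MRC5_Mo 3 of 8 tested rose and 1 fell, with a median of 0.25. THBS2, thrombospondin 2, rose from 6.51 ± 0.03 to 15.4 ± 1.3 FPKM, a log2 fold change of 1.44, and TNC, tenascin C, fell from 129 ± 9.8 to 67.5 ± 0.40 FPKM, a log2 fold change of -0.78 (edgeR adjusted p = 2.60e-16 and 1.36e-13). In H196_Co 1 of 7 rose, TNXB, at 0.80.

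Of the fibroblast markers 2 of 10 rose and 2 fell in MRC5_CoH196, with a median of 0.15. PDGFRB rose by 0.67 and VIM by 0.63, while COL3A1 fell by 2.09 and COL1A1 by 1.57 on the log2 scale. The summed fibroblast markers ran from 9394 to 9758 FPKM in MRC5_Mo and from 8076 to 8493 FPKM in MRC5_CoH196. Of 3 tested epithelial markers KRT19 and KRT8 rose, by 0.99 and 0.83 on the log2 scale. KRT18, the most abundant of the 3, went the other way, at -0.25 and short of the fold limit. It stood at 75.8 FPKM in MRC5_Mo and 56.6 FPKM in MRC5_CoH196. The summed epithelial markers were at 106 to 112 FPKM in MRC5_Mo and 108 to 114 FPKM in MRC5_CoH196. Their part in the CCN values was not tested. For MRC5_CoH69 the 7 lists with no called gene held 73 tested genes, of which 32 had an unadjusted p under 0.05 and 0 were called by DESeq2. For H196_Co the 4 lists with no called gene held 25 tested genes, of which 12 had an unadjusted p under 0.05 and 0 were called by DESeq2.

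The genes whose pattern was most like that of each member were sought among 5898 genes with a mean of at least 10 FPKM, by Pearson's r of log2 CPM over the 9 MRC5 libraries. The libraries fall into groups, so r mostly records the contrast of MRC5_CoH196 with the rest, and it is given as a description. For CCN2 the leading gene was the glucose transporter SLC2A1 (r = 0.999), followed by CLK3 and LATS2. For CCN1 it was POFUT2 (r = 0.999), followed by the glycolytic enzyme ALDOA and ZER1. For CCN4 it was PGRMC2 (r = 0.998), then HOXB5 and ANTXR1. For CCN5 it was CCNY (r = 0.995), then WDR54 and HDHD5, and for CCN3 it was GDI2 (r = 0.970), then SKA2 and TFAM.

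The scale bears on these values. On log2(FPKM + 1) the median of all tested genes was -0.13 in MRC5_CoH196 against MRC5_Mo, and -0.00 with the count model. With the count model 53.9% of called genes were higher in that comparison, and 30.5% on log2(FPKM + 1). For MRC5_CoH196 against MRC5_CoH69 the shares were 53.7% and 32.0%, for MRC5_CoH69 against MRC5_Mo 76.1% and 94.4%, and for H196_Co against H196_Mo 84.4%, with 73.4% on log2(FPKM + 0.1). On log2(FPKM + 1) CCN1 stood at 1.08 and CCN2 at 1.02 in MRC5_CoH196 against MRC5_Mo, CCN3 at -0.59, CCN4 at 2.05 and CCN5 at 1.20.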

How the data were processed

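Poly(A) RNA of 15 libraries was sequenced on the BGIseq-500. Per the methods and labels, the authors cleaned reads with SOAPnuke and aligned them with HISAT and Bowtie2 (2.3.4.3) to GRCh38.p13; RSEM 1.3.1 is named in the submitters' processing notes. The authors deposited expected counts, which are estimates that need not be whole (93.7% whole in the MRC5 table, 92.1% in H196). The deposited FPKM values are scaled by the authors by gene length and fragment total. Columns of the authors' own comparisons (fold changes and test values) and 18 and 12 further per-library columns were not used.

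Expected counts were rounded and tested with edgeR 4.0.16 (R 4.3.3; TMM, filterByExpr, quasi-likelihood, two-sided, Benjamini-Hochberg), in 1 model for the 9 MRC5 libraries and 1 for the 6 H196 libraries. The SE was taken as the log2 fold change over the root of its F statistic. Group names follow the labels. CPM (counts scaled to library size) use TMM sizes; the limit that a count of 0 allows uses 3 counts of a library total. Replicates differed by more than sampling noise. On simulated counts edgeR recovered 100 of 100 genes changed by a log2 fold change of 1 and 100 of 100 changed by 2. This held for MRC5_CoH196 against MRC5_Mo, among 12708 genes with 7 false calls. It also held for H196_Co against H196_Mo, among 12751 genes with 5 false calls. The 200 changed genes of each simulation lay above 5 CPM on average, a level that CCN3 and CCN5 did not reach. The simulations thus cover neither low counts nor a comparison in which 31.9% of genes are called.

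Members and lists were chosen with earlier results of these data known. Genes named from a list were called and at 5 CPM or more on average, with up to 2 largest rises and 2 largest falls per list in MRC5_CoH196 against MRC5_Mo and H196_Co against H196_Mo. Alternatives were DESeq2 1.42.0 (size factors, Wald test), limma 3.58.1 with FPKM pseudocounts of 1 and 0.1, other fold limits and filters, the replicate block, only the groups compared and each library left out. The results of some listed genes are not reported here. A list taken from the tables' annotation was added after seeing the data.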

Additional observations from a re-analysis of the deposited data

Results flagged for a closer look

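In 3 genes named by the rule for naming list genes, every MRC5_CoH196 library lay on one side of MRC5_Mo and every H196_Co library on the other side of H196_Mo. The difference between the lines was not tested. COL1A1 had a log2 fold change of -1.57 in MRC5 and 0.41 in H196, where it stood below 1 FPKM and did not pass (edgeR adjusted p = 0.244). EGR1 had -0.69 in MRC5 and 0.95 in H196. TEAD4 had -0.66 in MRC5 and 0.30 in H196, the latter short of the fold limit. KRT18 (-0.25 in MRC5 and 0.29 in H196) and TGFB2 (1.12 and -0.26), named outside that rule, also lay on opposite sides. Both were short of the fold limit in H196.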

How the results depend on the processing

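CCN1, CCN2, CCN3, CCN4 and CCN5 kept the direction of their log2 fold changes in each comparison under each alternative run. Leaving out 1 library kept 5 called members with H196, 1 with H69, 5 between the partners and 2 in H196. Asking for 10 counts or more in each library removed CCN3 and CCN5, which left 3 called members against MRC5_Mo and 3 between the partners, and left 0 YAP/TAZ-TEAD targets in H196. A fold limit of 1 left 0 called members with H69 and 0 in H196, and no fold limit called 2 with H69; on log2(FPKM + 1) 0 were called with H69 and 4 between the partners, where CCN3 was lost. Low counts limit CCN3 and CCN5, and FPKM carries no depth.

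Called genes numbered 9522 with no fold limit and 1564 with a limit of 1 in MRC5_CoH196 against MRC5_Mo, 859 and 9 in MRC5_CoH69 against MRC5_Mo, 9269 and 1353 between the partners, and 2538 and 147 in H196. DESeq2 called 40 and log2(FPKM + 1) 18 in MRC5_CoH69, and log2(FPKM + 1) called 195 in H196. YAP/TAZ-TEAD targets called numbered 19 and 4 in MRC5_CoH196 against MRC5_Mo, 6 and 0 with H69, 16 and 2 between the partners, with no limit and a limit of 1, and 8 in H196 with no limit. On log2(FPKM + 1) they numbered 5, 3 (also on log2(FPKM + 0.1)) and 1 in MRC5_CoH196 against MRC5_Mo, between the partners and in H196. The annotation's YAP conserved signature, added after seeing the data, gave 20 of 52 tested genes with H196 (14 higher and 6 lower, median 0.09, beside 31.9% of all genes called), 1 with H69, 15 between the partners (11 higher and 4 lower, median 0.02) and 3 in H196. Leaving out 1 library gave 1 to 2 targets in H196, 5 to 6 between the partners, 7 to 8 with H196 and 2 to 3 with H69. The cause was not tested.

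Libraries with the same replicate number did not deviate together (correlations -0.15 to 0.08, best with the own number in 3 of 24 cases). With the replicate number as a block, 4088, 70, 3612 and 471 genes were called in the 4 comparisons, beside 4092, 71, 3618 and 494. On log2(FPKM + 1) SAV1, PDGFRB and VIM in MRC5_CoH196, ITGB3 and IGF2 in MRC5_CoH69, and IGFBP3, NKD2, TAGLN and TNXB in H196 fell short of the fold limit or the adjusted p.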
